A study of Mus musculus with 6 samples.

Results

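The interferon-induced transmembrane (IFITM) genes were described in bone marrow-derived macrophages (BMDM) that carried or lacked the catalytic subunit of protein phosphatase 2A (PP2Ac). The members were the 5 rows of the gene count table named Ifitm1, Ifitm2, Ifitm3, Ifitm6 and Ifitm10, out of 55453 genes. Of these 5, 4 had enough reads for a test, as did 13680 genes of the whole table. RNA-Seq was done on 3 libraries of PP2Ac KO BMDM from LysM-cre PP2Ac fl/fl mice and on 3 libraries of WT BMDM, all of C57BL/6 background. The cre recombinase is driven by the promoter of the myeloid gene Lyz2 (LysM) and the floxed gene is Ppp2ca. The labels give neither a treatment nor an age or sex for single libraries. The study describes its RNA-Seq of BMDM as done after the STING agonist cGAMP, and no untreated library was analysed here, so that induction of a gene by cGAMP could not be measured. Per the study, the WT mice were bought in and are not described as cre-bearing or floxed littermates, so that the deletion, the cre and the colony cannot be told apart. Nothing in the labels says that the replicates came from separate mice or cultures, and p-values measure the spread between these libraries, which may be technical.

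IFITM proteins are small membrane proteins of the plasma membrane, endosomes and lysosomes that hinder the fusion of enveloped viruses with the membranes of the cell. Ifitm3 acts mainly in late endosomes and lysosomes and is the member best known for restricting influenza A virus, while Ifitm1 is found more at the cell surface. The genes are switched on by type I and type II interferons through STAT factors, and the proteins are tuned after translation by S-palmitoylation, ubiquitination, methylation and phosphorylation. Ifitm2 is a close relative of Ifitm3, Ifitm6 is a rodent member with transcripts in myeloid cells, and Ifitm10 is a more distant relative that is not known as an interferon-induced gene. Ifitm5, a gene of bone-forming cells, and Ifitm7 belong to the same family in the mouse.

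Ifitm1, Ifitm2, Ifitm3 and Ifitm6 lie together on chromosome 7 within 63.1 kb (GENCODE M21 annotation of GRCm38). Ifitm2 (ENSMUSG00000060591.9, chr7:140954837-140955987) is on the minus strand with 2 exons. Ifitm1 (ENSMUSG00000025491.14, chr7:140967221-140969825) is on the plus strand with 2 or 3 exons by transcript. Ifitm3 (ENSMUSG00000025492.6, chr7:141009586-141010770) has 2 exons and Ifitm6 (ENSMUSG00000059108.4, chr7:141015699-141017924) has 2 or 3, both on the minus strand. Ifitm10 (ENSMUSG00000045777.14, chr7:142325837-142373753, minus strand) lies apart from the cluster and spans 47.9 kb. All 5 are protein-coding genes.

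The coding sequences show how close the members are, and where short reads could fall on more than 1 of them. Over the whole coding sequence Ifitm2 and Ifitm3 were 75.9% identical, Ifitm1 and Ifitm3 63.5%, and Ifitm3 and Ifitm6 57.6%, while Ifitm10 had 35.7% to 41.2% identity with the other 4 members. The stretch below is the most alike part, read from the GENCODE M21 transcripts 5′ to 3′, coding positions 133 to 225 of Ifitm3 with the aligned part of the other cluster genes. It is shown because it holds the runs that Ifitm3 shares without a mismatch with Ifitm2 (69 bases) and with Ifitm1 (64 bases). Capitals mark bases that differ from Ifitm3.
Ifitm3: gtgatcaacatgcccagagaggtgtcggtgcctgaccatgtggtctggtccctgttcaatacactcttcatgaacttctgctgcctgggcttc
Ifitm2: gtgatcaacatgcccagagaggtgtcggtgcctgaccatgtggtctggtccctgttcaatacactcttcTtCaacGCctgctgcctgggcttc
Ifitm1: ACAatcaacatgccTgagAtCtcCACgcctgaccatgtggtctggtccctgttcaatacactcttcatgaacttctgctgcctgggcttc
Ifitm6: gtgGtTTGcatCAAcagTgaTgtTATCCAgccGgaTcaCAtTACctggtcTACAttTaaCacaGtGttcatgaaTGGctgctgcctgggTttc
Ifitm2 differed from Ifitm3 at 4 bases of this stretch and Ifitm6 at 34. Ifitm1 differed at 9 bases and lacked 3 bases of the stretch, which is the reason why its line is shorter.

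The same comparison was made for reads, by asking how many 50-base windows of a gene's exons occur in another gene. For Ifitm6 0 of 854 windows occurred elsewhere. For Ifitm3 it was 63 of 629 windows, of which 20 were shared with Ifitm2 and 15 with Ifitm1. For Ifitm1 the share was 5.02%, mostly with the gene Gm7676, and for Ifitm10 it was 3.51%. Ifitm2 stood out with 48.5%, of which 36.1% of its windows fell on Gm45717, a gene model that overlaps 268 bases (40.9%) of the Ifitm2 exons on the same strand. Gm45717 had 0 counts in every library, and Gm11951, Gm8865 and Gm7676, which resemble members of the cluster, had at most 5 counts in any library. How reads that fit both Ifitm2 and Gm45717 were counted is not given in the sources used here, so that the level of Ifitm2 is uncertain.

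The 250 bases before the RefSeq transcription start were read for the 3 members that were called below (RefSeq promoters, GRCm38.p6, minus strand, written 5′ to 3′ in the direction of transcription). They were searched on both strands for the core of the interferon-stimulated response element, GAAANNGAA, and for the gamma-activated site, TTCNNNGAA. The sequences are shown because these members were called, and capitals mark a match. Ifitm1 and Ifitm10 were searched in the same way, and their windows are not shown.
Ifitm2, chr7:140955962-140956211: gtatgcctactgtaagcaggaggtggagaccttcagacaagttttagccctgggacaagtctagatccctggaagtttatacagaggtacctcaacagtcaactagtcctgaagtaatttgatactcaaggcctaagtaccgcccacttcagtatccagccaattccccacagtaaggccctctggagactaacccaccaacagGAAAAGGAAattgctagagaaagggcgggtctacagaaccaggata
Ifitm3, chr7:141010745-141010994: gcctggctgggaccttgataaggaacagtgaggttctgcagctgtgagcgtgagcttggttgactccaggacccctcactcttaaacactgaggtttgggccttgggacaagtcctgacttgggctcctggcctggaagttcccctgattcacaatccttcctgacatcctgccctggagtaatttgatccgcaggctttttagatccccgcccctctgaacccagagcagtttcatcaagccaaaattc
Ifitm6, chr7:141016893-141017142: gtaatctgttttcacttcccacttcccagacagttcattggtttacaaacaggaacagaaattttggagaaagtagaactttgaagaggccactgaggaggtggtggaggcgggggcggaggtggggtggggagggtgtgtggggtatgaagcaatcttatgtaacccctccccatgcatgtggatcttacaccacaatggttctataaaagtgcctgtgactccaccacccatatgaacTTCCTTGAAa
Ifitm2 held the response element core 46 bases before its start, and Ifitm6 held a gamma-activated site match 10 bases before its start. Neither motif was found in these windows of Ifitm3, Ifitm1 or Ifitm10. Some bases of the windows lie in GENCODE M21 exons of the same gene. Ifitm10 had 3 windows, with 182, 7 and 114 such bases. The other members had 48 in Ifitm1, 26 each in Ifitm2 and Ifitm3, and 16 in Ifitm6. The Ifitm6 match next to its start may therefore lie in transcribed sequence. The GENCODE genes Ifitm6 and Ifitm1 begin further upstream, outside these windows, and the sequence before those starts was not searched. Of all 32851 promoter windows of the same length, 7.13% held the response element core and 7.02% the gamma-activated site. The Ifitm2 and Ifitm3 windows shared 3 runs of 10 or 11 bases. These matches describe the letters and were not tested for binding.

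Library totals ran from 35257156 to 47390899 counts, and 3 counts, taken as the floor of detection, were worth 0.0604 to 0.0909 CPM. CPM are counts-per-million values after TMM scaling, the trimmed-mean scaling of edgeR. Ppp2ca, the deleted gene, had 33 to 47 counts in the PP2Ac KO libraries and 8279 to 10654 counts in the WT libraries. Of 8 macrophage markers all 8 were expressed, among them Csf1r and Adgre1, though Lyz2 was at 6.58 to 10.1 CPM. The summed level of the 8 was 8623 to 8733 CPM in PP2Ac KO and 7279 to 7840 CPM in WT. Of these markers 2 were higher in PP2Ac KO (Fcgr1 and Mertk) and 0 were lower. Of the fibroblast markers, 6 of 7 were tested and all 6 were lower in PP2Ac KO (summed level 24.9 to 37.4 CPM against 80.8 to 124.9 CPM). Of the monocyte markers, 4 of 5 were higher and 0 were lower (38.5 to 53.0 CPM against 17.9 to 29.7 CPM). Of 10 neutrophil markers, Ly6g had 0 counts in every library, 5 with Ly6g among them had at most 3 counts in any library, and S100a8 had 25 to 37 counts in each (not called). The part of these cell type markers in the results below was not tested. In bulk RNA, more cells of a kind and more RNA per cell cannot be told apart.

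The question of the comparison was whether IFITM transcripts differ between macrophages with and without PP2Ac. Ifitm3, Ifitm2 and Ifitm6 were higher in PP2Ac KO BMDM than in WT BMDM, by 1.75-fold, 1.26-fold and 2.18-fold, and Ifitm1 was not called. In the quasi-likelihood test of edgeR, with p-values adjusted over 13680 genes by Benjamini-Hochberg and called at FDR under 0.05, 3 of the 4 tested members were higher and 0 were lower. Of all tested genes, 18.1% (2470) were higher and 19.0% (2604) were lower. With upper-quartile scaling these numbers were 2095 and 3356. At the stricter threshold of the study, a log2 fold change over 1 with FDR under 0.01, 1 of the 4 members passed (Ifitm6), against 3.36% of all tested genes. After TMM scaling, every PP2Ac KO library lay above every WT library in 3 of the 4 members, as it did in 24.0% of the tested genes. The median log2 fold change over all tested genes was -0.02.

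**Figure D1:**
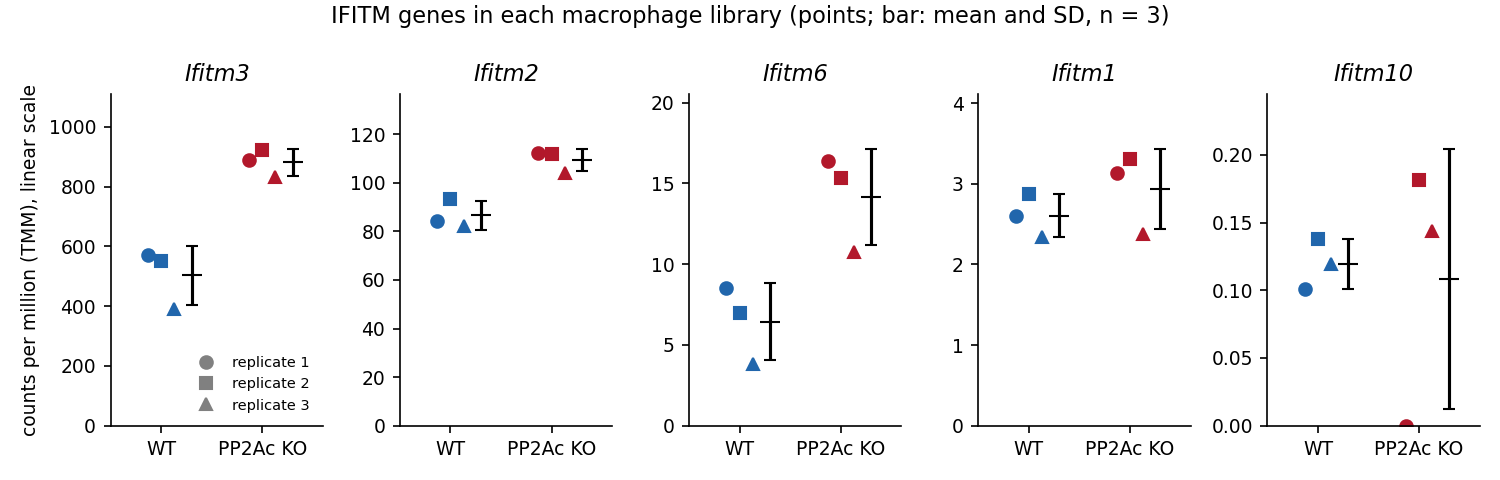
Counts-per-million values (TMM scaled, linear axes that differ between panels) of each IFITM gene in each library, with circles, squares and triangles for replicates 1, 2 and 3 and a bar for mean and SD (n = 3). The PP2Ac KO points lie above all WT points for Ifitm3, Ifitm2 and Ifitm6, overlap them for Ifitm1, and Ifitm10 is at or below 0.182 CPM in every library.

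Ifitm3, the endosomal restriction factor, was the most abundant member. Its counts were 37657, 30468 and 34780 in PP2Ac KO replicates 1, 2 and 3, and 28300, 23918 and 16326 in WT replicates 1, 2 and 3. After scaling these were 888, 923 and 833 CPM in PP2Ac KO and 570, 550 and 389 CPM in WT. The lowest PP2Ac KO library was well above the highest WT library, and WT replicate 3 was the lowest of all 6. The means were 881 ± 45.1 CPM and 503 ± 98.9 CPM (SD, n = 3), and the log2 fold change was 0.81 (SE 0.13, 95% interval 0.51 to 1.11, edgeR adjusted p = 0.00139). Of all tested genes, 6.11% had a larger log2 fold change than Ifitm3.

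Ifitm2, the closest relative of Ifitm3, had 4754, 3698 and 4348 counts in PP2Ac KO and 4193, 4064 and 3445 counts in WT. After scaling the values were 112.1, 112.0 and 104.2 CPM in PP2Ac KO, and 84.4, 93.4 and 82.2 CPM in WT. The groups did not overlap, but the gap between them was narrow. Raw counts of WT replicates 1 and 2 reached into the PP2Ac KO range and were set apart by the scaling. The TMM factors, which correct beyond library totals, were 0.910 to 0.937 in PP2Ac KO and 1.05 to 1.10 in WT. By library totals alone WT replicate 2 lay above PP2Ac KO replicate 3, so that the separation of the groups rests on these factors. The log2 fold change was 0.34 (SE 0.07, 95% interval 0.18 to 0.49, edgeR adjusted p = 0.00473), with means of 109 ± 4.53 CPM and 86.7 ± 5.97 CPM (SD, n = 3). A larger log2 fold change was found in 17.7% of the tested genes.

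Ifitm6, the rodent member, had 695, 506 and 449 counts in PP2Ac KO and 424, 303 and 161 counts in WT. These were 16.4, 15.3 and 10.8 CPM in PP2Ac KO, and 8.54, 6.97 and 3.84 CPM in WT. PP2Ac KO replicate 3 and WT replicate 1 were the nearest libraries of the groups, and WT replicate 3 was again the lowest. The log2 fold change was 1.12 (SE 0.25, 95% interval 0.55 to 1.70, edgeR adjusted p = 0.00739), with means of 14.2 ± 2.99 CPM and 6.45 ± 2.39 CPM (SD, n = 3). Without WT replicate 3 it was 0.87, and leaving out PP2Ac KO replicate 1 or 2, or WT replicate 2 or 3, took Ifitm6 out of the stricter threshold, so that 0 members passed it. Monocyte markers moved in the same direction as Ifitm6, with Plac8 at a log2 fold change of 2.48 and Ly6c2 at 1.38, and their part in the Ifitm6 difference was not tested.

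Ifitm1, the cell-surface member, had 133, 109 and 99 counts in PP2Ac KO and 129, 125 and 98 counts in WT. Its levels were 3.14, 3.30 and 2.37 CPM in PP2Ac KO, and 2.60, 2.87 and 2.34 CPM in WT. The groups overlapped, with PP2Ac KO replicate 3 next to the lowest WT library. The log2 fold change of 0.17 (SE 0.16, 95% interval -0.20 to 0.53, edgeR adjusted p = 0.451) did not pass the test, and the interval does not exclude a rise of the size seen for Ifitm2.

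Ifitm10 was at the limit of detection. It had 0, 6 and 6 counts in PP2Ac KO and 5, 6 and 5 counts in WT, in all 12 against 16 counts, and was left out of the test by the filter on low counts. A difference in Ifitm10 was not detectable at this depth. Of the other family genes, Ifitm5 had 5 to 7 counts in PP2Ac KO and 7 to 13 counts in WT, and Ifitm7, on chromosome 16, had 0 counts in every library.

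Levels of different genes were compared per length of exon, as CPM divided by the kilobases of exon (RPKM). On this scale Ifitm3 was at 1300 ± 66.5 in PP2Ac KO and 742 ± 146 in WT (SD, n = 3), and Ifitm2 at 167 ± 6.92 and 132 ± 9.11. Ifitm6 followed with 15.6 ± 3.30 and 7.12 ± 2.64, Ifitm1 with 2.68 ± 0.453 and 2.38 ± 0.245, and Ifitm10 with 0.0227 ± 0.0200 and 0.0249 ± 0.00390. The order Ifitm3, Ifitm2, Ifitm6, Ifitm1, Ifitm10 was the same in both groups and no neighbours in it overlapped. Among 13608 tested genes with a length, Ifitm3 was number 28 by mean RPKM in PP2Ac KO and number 37 in WT, within the top 0.206% and 0.272%. Ifitm2 was number 286 and 289, Ifitm6 number 2785 and 4808, and Ifitm1 number 7624 and 8044. Of the reads on the 5 members, Ifitm3 took 87.4% ± 0.305 in PP2Ac KO and 83.8% ± 2.10 in WT (SD, n = 3), while Ifitm2 took a mean of 10.9% and 14.7%.

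**Figure D2:**
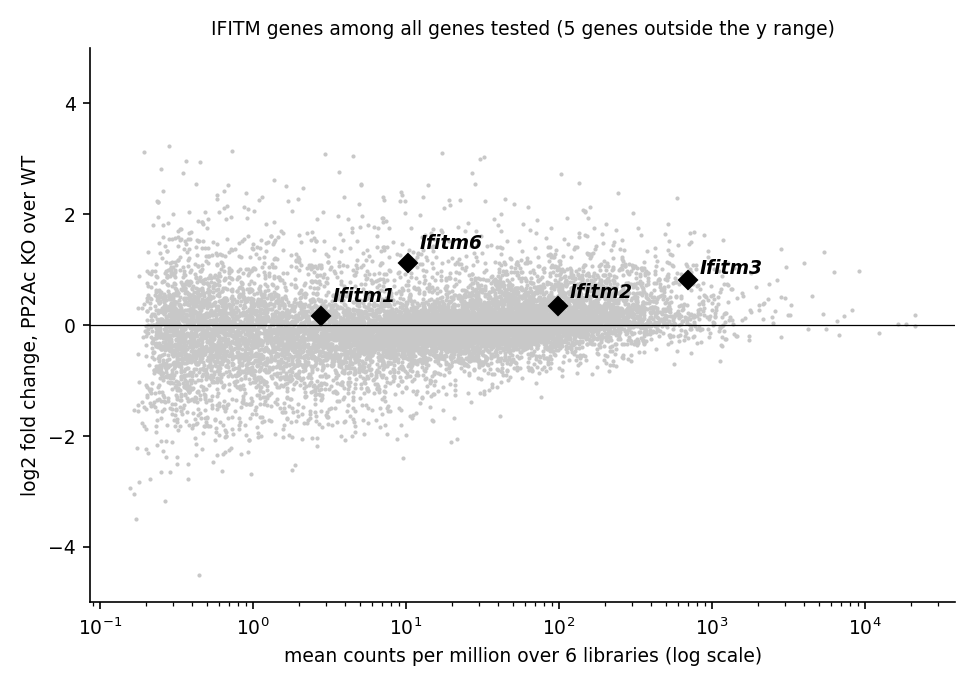
Mean counts-per-million value over 6 libraries (log axis) against the log2 fold change of PP2Ac KO over WT for the 13680 tested genes (grey) with the 4 tested IFITM genes as black diamonds; 5 genes lie outside the vertical range. Ifitm3 combines a mean of 881 CPM in PP2Ac KO and 503 CPM in WT with a log2 fold change of 0.81, and Ifitm1 at 0.17 lies within the body of the cloud.

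Whether the members differed by unequal amounts was asked with the ratio of their counts within each library, which does not depend on the scaling between libraries. The ratio of Ifitm3 to Ifitm2 was 7.9, 8.2 and 8.0 in PP2Ac KO and 6.75, 5.89 and 4.74 in WT. It was higher in every PP2Ac KO library, and the difference of the mean log2 ratios was 0.49 (exact two-sided permutation test, p = 0.1, adjusted p = 0.15 over 6 ratios). The ratio of Ifitm3 to Ifitm1 was 283, 280 and 351 in PP2Ac KO and 219, 191 and 167 in WT (difference 0.66 on the log2 scale, exact permutation p = 0.1). The ratios of Ifitm6 to Ifitm2 and to Ifitm1 also did not overlap between the groups, with differences of 0.85 and 1.02 on the log2 scale and an exact permutation p of 0.1 each. A p of 0.1 is the smallest that this permutation test can give for 3 against 3 libraries, so that it could not pass 0.05 for any ratio. The ratio of Ifitm6 to Ifitm3 overlapped between the groups (difference 0.36, exact permutation p = 0.2), as did that of Ifitm2 to Ifitm1 (difference 0.17, exact permutation p = 0.2). With same-numbered libraries taken as pairs, both were nevertheless higher in PP2Ac KO in 3 of 3 pairs, by 0.30 to 0.39 on the log2 scale for Ifitm6 to Ifitm3 and by 0.06 to 0.32 for Ifitm2 to Ifitm1. The other 4 ratios were also higher in 3 of 3 pairs, and the exact paired test gave p = 0.25 for each of the 6 ratios, the smallest that 3 pairs can give.

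**Figure D3:**
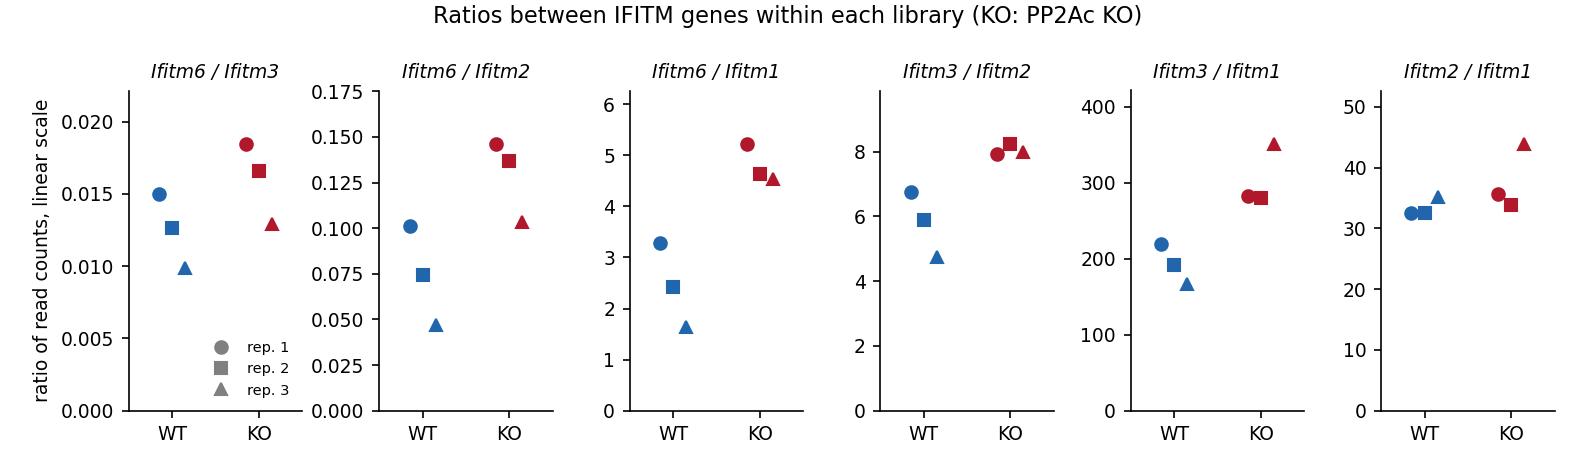
Ratio of read counts between each pair of tested IFITM genes within each library (linear axes from 0, not corrected for gene length), in WT (blue) and PP2Ac KO (red), with circles, squares and triangles for replicates 1, 2 and 3. The ratios Ifitm6/Ifitm2, Ifitm6/Ifitm1, Ifitm3/Ifitm2 and Ifitm3/Ifitm1 are higher in all PP2Ac KO libraries, while Ifitm6/Ifitm3 and Ifitm2/Ifitm1 overlap.

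The interferon pathway that controls the IFITM genes was followed with 18 measured genes from ligand to transcription factor. Of these, 13 were higher in PP2Ac KO, 0 were lower and 5 did not pass the test. Of all tested genes, 18.1% were higher and 19.0% were lower. The median log2 fold change of the list was 0.55, against -0.02 for all tested genes. Ifnb1, the gene of the ligand IFN-beta, had 19.2, 13.1 and 15.4 CPM in PP2Ac KO and 8.86, 5.91 and 4.32 CPM in WT (log2 fold change 1.32, SE 0.23, edgeR adjusted p = 0.00200). Among the receptor chains, Ifnar2 was higher with a log2 fold change of 0.23, and Ifnar1 had 0.19 (edgeR adjusted p = 0.0565, or 0.00222 when replicate numbers were blocked). Stat2, a factor that carries the signal to the nucleus, was higher with a log2 fold change of 0.65. Irf1, a factor of the gamma-interferon response, was higher by 0.64 and Irf7, the factor that amplifies type I interferon, by 1.53. Usp18, a brake on the type I receptor, was higher by 1.27. Ifngr2 and Jak1 also passed the test in the blocked fit, which called more genes throughout. Over all 13680 tested genes it called 3343 higher and 3615 lower, against 2470 and 2604 without the block. With the block, 1 gene of the list, the gamma-interferon receptor chain Ifngr1, was called lower (log2 fold change -0.16 without the block, edgeR adjusted p = 0.207 without and 0.0307 with it).

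Other interferon-induced antiviral effectors were placed beside the members. Of 28 listed genes, 27 were tested, 26 were higher and 0 were lower. The shares over all tested genes were 18.1% higher and 19.0% lower. This list, like the others, was chosen with earlier results of these data known. The median log2 fold change of the 27 tested effectors was 1.05, against -0.02 for all tested genes. The member values of 1.12 (Ifitm6), 0.81 (Ifitm3), 0.34 (Ifitm2) and 0.17 (Ifitm1) stood beside 0.38 to 2.55 for the 26 effectors that were called. Ifi44 had the largest value (2.55), followed by Ch25h (2.26), which makes 25-hydroxycholesterol, a sterol that also blocks viral fusion, and the exonuclease gene Isg20 (1.65). Ly6e was higher by 1.51, the ubiquitin-like modifier Isg15 by 1.16, and Bst2, which tethers budding virions, by 1.10. Ifi27 did not pass the test (-0.09, edgeR adjusted p = 0.455). The ISRE core of the promoter search was found in 9 of the 21 effectors that had a promoter entry, and in 2211 of 27025 genes in all.

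The libraries could also be ordered by their interferon response as a whole. The mean log2 CPM of the 27 effectors was 9.43, 9.32 and 9.25 in PP2Ac KO replicates 1, 2 and 3, and 8.49, 8.18 and 7.95 in WT replicates 1, 2 and 3. Within WT, replicate 3 was the lowest and replicate 1 the highest for the effector mean, for Ifnb1, for Irf7, for Ifitm3 and for Ifitm6. Ifitm2 and Ifitm1 were also lowest in WT replicate 3, but highest in WT replicate 2. Within PP2Ac KO the orders differed, since the effector mean, Irf7, Ifnb1 and Ifitm6 were highest in replicate 1 and Ifitm3 in replicate 2, and Ifnb1 was lowest in replicate 2 while the effector mean, Irf7, Ifitm3 and Ifitm6 were lowest in replicate 3. These orders rest on 3 libraries a group.

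Genes whose proteins modify or move IFITM proteins were measured as a further list. Of 18 genes of this kind, 2 were higher, 5 were lower and 11 did not pass the test, with a median log2 fold change of -0.03, where 18.1% of all tested genes were higher and 19.0% lower. Counts of this size lie near those shares and are no result about the list as a whole. Nedd4, the ubiquitin ligase that marks IFITM3 for turnover, had a level of 3.11 ± 0.495 CPM with the deletion and 8.98 ± 2.41 CPM without it (SD, n = 3), and its log2 fold change was -1.53 (SE 0.21, edgeR adjusted p = 0.000598). All 6 tested fibroblast markers moved in the same direction as Nedd4, with Col1a1 at a log2 fold change of -2.10 and Col3a1 at -1.95. Their part in the Nedd4 difference was not tested. Setd7, a methyltransferase that acts on IFITM3, was lower with -0.42. Of the palmitoyltransferases that add the lipid needed for antiviral activity, Zdhhc9 (-0.42) and Zdhhc20 (-0.36) were lower on the log2 fold change scale, Zdhhc7 also fell (-0.33), and Zdhhc5 was higher (0.31). The palmitoyltransferase genes Zdhhc1 (0.03), Zdhhc3 (-0.05) and Zdhhc2 (-0.61, at 4 to 23 counts a library) did not pass the test. Abhd16a, a depalmitoylase, was higher by 0.45. Zmpste24, a membrane protease that works together with IFITM proteins, had 0.06 (edgeR adjusted p = 0.482), and Vapa, a cholesterol-transport partner bound by IFITM3, had 0.16 (edgeR adjusted p = 0.0753, and 0.00892 with the block). With the replicate block 5 genes of this list were higher in place of 2, the kinase gene Fyn, Vapa and the AP-2 adaptor gene Ap2s1 being added. The block also raised the calls over all tested genes, to 3343 higher and 3615 lower.

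Tetraspanins, membrane proteins that share compartments or complexes with IFITM proteins, were a list of 6 tested genes, too few to be read against the 18.1% higher and 19.0% lower of all genes. Of these, Cd82 (log2 fold change 0.33) and Cd53 (0.30) were higher, Cd9 was lower (-0.26, edgeR adjusted p = 0.0113) and 3 did not pass the test. Cd81, a known partner of IFITM1, had -0.16 (edgeR adjusted p = 0.107, and 0.0104 with the block, when 2 genes of the list were lower). Without WT replicate 2, 0 tetraspanins were called lower. Of 9 relatives with the same CD225 domain, Tmem91 and Trarg1 alone had enough reads for a test and neither was called, with log2 fold changes of -0.23 and -0.34.

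Genes around the Ifitm cluster were taken by position alone. Of 30 protein-coding neighbours within 250 kb on either side, 17 were tested, 3 were higher, 4 were lower and 10 did not pass the test. Their median log2 fold change was -0.09. These counts are close to the 18.1% higher and 19.0% lower of all tested genes and are no result about the neighbourhood. The nearest tested neighbour on the Ifitm2 side, Pgghg, 7.17 kb away, was higher by 0.52 (edgeR adjusted p = 0.000614), which is more than Ifitm2 itself on the log2 scale. The nearest on the Ifitm6 side, Pkp3, 60.3 kb away, was higher by 1.33 at a level of 0.398 ± 0.120 against 0.154 ± 0.0794 CPM (SD, n = 3). Irf7 lay 244.8 kb away on the same side. Sirt3 (-0.48), Ric8a (-0.29), Phrf1 (-0.27) and Bet1l (-0.23) were lower. Around Ifitm10, 7 of 23 neighbours were tested and 1 was higher (Lsp1, log2 fold change 0.33). Ctsd, the cathepsin D gene 2.16 kb from Ifitm10, had 4125 ± 252 CPM in PP2Ac KO BMDM and 4334 ± 340 CPM in WT BMDM (SD, n = 3) and was not called (edgeR adjusted p = 0.553), beside an IFITM gene with at most 6 counts in a library.

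**Figure D4:**
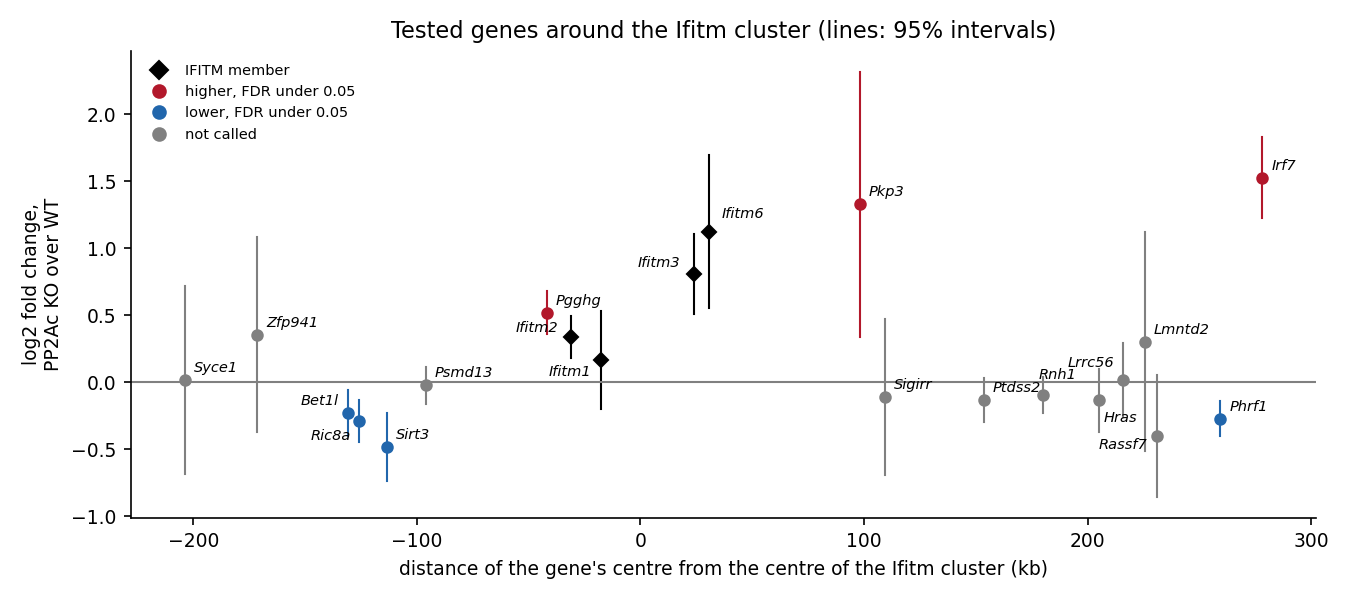
Log2 fold change of PP2Ac KO over WT with 95% intervals for tested protein-coding genes, by the distance of the gene's centre from the centre of the Ifitm cluster in kilobases, with IFITM genes as black diamonds and neighbours coloured by their call. Values on both sides of 0 surround the cluster, with Pgghg, Pkp3 and Irf7 higher and Sirt3, Ric8a, Bet1l and Phrf1 lower.

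For each tested member the 3 genes with the most similar profile over the 6 libraries were found, by the root mean square distance between centred log2 CPM values. For Ifitm3 these were Rgs1 (distance 0.0486), Cd72 (0.0545) and the class I light chain gene B2m (0.0595). For Ifitm6 they were Lpar1 (0.0729), Gm7592 (0.0989) and Nr4a3 (0.103). For Ifitm2 they were Chchd7 (0.0247), H2afy (0.0253) and Vps37c (0.0310), and for Ifitm1 Ptp4a3 (0.0257), Map7 (0.0374) and Tmem14a (0.0546). All of these profiles share the same 6 libraries and the same contrast.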

How the data were processed

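RNA-Seq libraries (poly(A) selected, directional, paired end) were made from 3 PP2Ac KO and 3 WT BMDM samples. The authors deposited 1 table of raw counts, whole numbers per gene symbol without normalization, on mm10. The submitters' processing notes name fastp 0.20.0, kallisto 0.46.1, STAR 2.7.1a, HTSeq 0.11.2, edgeR 3.34.0 and limma 3.48.3 without their roles. The strand setting and annotation release are not given in the sources used here. Without them, reads on overlapping genes cannot be divided with certainty.

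Groups and replicate numbers came from the labels. Genes were kept by filterByExpr (minimum count 10, minimum total 15), which left 13680 of 55453 genes (30767 had 0 counts everywhere). Counts were scaled by TMM and tested by quasi-likelihood in edgeR 4.0.16 (R 4.3.3), with Benjamini-Hochberg adjustment over all tested genes. The biological coefficient of variation was 8.77%. Upper-quartile and RLE scaling, omission of the filter, at least 10 counts in every library, DESeq2 1.42.0, limma-voom 3.58.1, a replicate block, each replicate left out, and the cluster members' counts added together were tried as alternatives. Same-numbered PP2Ac KO and WT libraries deviated together from their group means (correlation over genes 0.289, 0.148 and 0.337 for numbers 1, 2 and 3). The correlations of other pairs were -0.258 to -0.0312. Deviations from a group mean cancel within the group. Negative values for other pairs thus follow from positive ones for same-numbered pairs and are no further evidence of pairing. The numbers were taken to pair the libraries in the replicate block and in the paired ratios, but the labels do not say that they mark pairs. The main fit compared the genotypes without this pairing, and the values above are from it unless a block is named. Library totals of 35257156 to 47390899 counts set the precision, and floors cover counting error only. On simulated data of 13680 genes with 200 changed by a log2 fold change of 1 between PP2Ac KO and WT, edgeR found 190 and made 14 false calls. The changed genes were drawn from those over 1 CPM, in equal numbers up and down, and the libraries were not paired. The simulation does not cover smaller changes such as that of Ifitm2, genes of lower level, or data with as many calls as these.

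The members and gene lists were chosen with earlier results of these data known. Named genes were the members, Ifitm5 and Ifitm7, and on each list the 3 called genes with the highest and the 3 with the lowest log2 fold change beside genes set by function, with Ppp2ca, the nearest profiles and the neighbours called or nearest. The ratios between members, unpaired and paired, the coding sequence comparison, and single genes that complete a small count (such as Zdhhc7, Fyn, Ap2s1, Ifngr1, Ifngr2, Jak1 and Ifi27) were added after values were seen. Coding sequences were aligned end to end in place of proteins, which were not analysed here. A few items that these rules name are not reported here.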

Additional observations from a re-analysis of the deposited data

How the results depend on the processing

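Over all alternatives the log2 fold change was 0.66 to 0.91 for Ifitm3, 0.27 to 0.39 for Ifitm2, 0.87 to 1.38 for Ifitm6 and 0.08 to 0.31 for Ifitm1. Ifitm3, Ifitm2 and Ifitm6 stayed called at FDR under 0.05 in each of them (highest adjusted p 0.00717, 0.0258 and 0.0333). Ifitm1 was called in none (lowest adjusted p 0.161). Every alternative scaled the counts beyond library totals, so that the call of Ifitm2 without such scaling was not tested. With the replicate block the values were 0.83, 0.34, 1.15 and 0.17, and the block changed no call of a member. The number of members past the stricter threshold ranged from 0 to 1 when a replicate was left out, with 0 without PP2Ac KO replicate 1, PP2Ac KO replicate 2, WT replicate 2 or WT replicate 3, where fewer samples were fitted. Of 268 values compared, 257 kept their direction and side of the test or, for counts of genes, stayed within 1.5 times. The other 11 were counts that did not. Among the 257 are the 6 ratios of members with libraries paired. Pairing cannot change their differences, and their paired test could not pass 0.05, so that their agreement was fixed in advance. The cluster members' summed counts, set against Ifitm3 alone, are also among the 257. The limit of 1.5 times is wide, since 3356 genes were lower in PP2Ac KO with upper-quartile scaling and 3615 with the replicate block, against 2604. Without WT replicate 2, 1 modifying gene was higher, and with upper-quartile scaling or without WT replicate 1, 2 tetraspanins were lower. The median log2 fold change of all tested genes was -0.02 with TMM, -0.0021 with RLE and -0.09 with upper-quartile scaling. Depth limits Ifitm10, Ifitm5 and Ifitm7, and 3 libraries a group limit the permutation tests of the ratios.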
